A study of Mus musculus with 3 samples.

Results

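The nuclear oxidative phosphorylation genes were taken here as all gene symbols that begin with Ndufa, Ndufb, Ndufc, Ndufs, Ndufv, Uqcr, Atp5 or Cox followed by a digit from 4 to 8, together with Sdha, Sdhb, Sdhc, Sdhd, Cyc1 and Cycs. Of 23183 genes in the files, 94 names matched, none was a pseudogene name, and 92 were kept because they reached 1 FPKM in at least 1 library. FPKM stands for fragments per kilobase of transcript, scaled to the mapped reads of the library, a measure of transcript level per length. The 92 genes comprise 81 subunits of the respiratory complexes (36 of complex I, 4 of complex II, 9 of complex III, 17 of complex IV and 15 of complex V, the ATP synthase), 7 assembly factors of complex I, the electron carrier cytochrome c, and 3 proteins outside the complexes (Atp5s, Atp5sl and Cox7a2l). Cox7b2 and Cox8c, known as testis forms of complex IV subunits, were listed at 0 in every library and were left out. By their highest value, the lowest genes kept were Atp5s (4.06, 3.30 and 3.12 FPKM in the OVA+PM10, PM10 and control libraries), Ndufaf5 (2.65, 5.41 and 2.76 FPKM) and Ndufaf6 (5.15, 6.93 and 3.18 FPKM). The 13 subunits that the mitochondrial genome encodes had no values.

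The libraries came from homogenised lungs of female BALB/c mice, with 1 library a group. OVA+PM10 mice received particulate matter of the PM10 class, a certified dust reference material, into the nose 4 times over 2 weeks in 20 µL of saline. They were also sensitised to ovalbumin (OVA), an egg-white protein used to model allergic asthma, with 20 µg in aluminium hydroxide injected into the abdomen, the last time on day 14, and were challenged through the nose on days 21, 22 and 23 with 30 µL of a 1 mg/mL solution. PM10 mice received the particles alone, and the control mice are labelled control with no vehicle named. Lungs were collected 2 days after that. The labels give the age as 10 weeks in 1 place and 5 to 6 weeks in another, name particle doses of 100 or 200 µg without saying which was sequenced, and assign 5 mice to a group without saying whether a library held RNA of 1 mouse or several. A group with OVA alone was not analysed here, so that in the OVA+PM10 library the effects of OVA and of particles cannot be told apart.

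Oxidative phosphorylation is the process by which mitochondria make most of a cell's ATP. Complexes I and II pass electrons from NADH and succinate to ubiquinone, complex III hands them to cytochrome c, complex IV gives them to oxygen, and the proton gradient built on the way drives the ATP synthase. Most of the subunits come from nuclear genes that are active in nearly every cell, while a few complex IV subunits exist in a second form made mainly in heart and skeletal muscle, in brown fat or in testis, or in the lung. NRF1, the ETS factor GABP and YY1 are known activators of many of these nuclear genes.

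Steps between the lowest values correspond to about 15300000, 12900000 and 20000000 reads in the OVA+PM10, PM10 and control libraries, and the member with the fewest reads had about 47.3, 68.0 and 64.3 of them. The summed FPKM differed, at 855739, 1293180 and 546315. The median gene nevertheless had a log2 ratio of FPKM + 1 near 0 in every comparison, with 0.02 between PM10 and control, -0.0017 between OVA+PM10 and control and -0.03 between OVA+PM10 and PM10. If every library were given the same summed FPKM, these medians would be -1.03, -0.57 and 0.46, and the ratio of a highly expressed gene would move by nearly -1.24, -0.65 and 0.60. Higher and lower therefore mean relative to the median gene, on the deposited scale. Lung markers were present in all libraries, with surfactant protein C (Sftpc) at 24439, 56646 and 22645 FPKM. The control library also held genes of squamous epithelium, whose 10 markers summed to 1.70, 0.965 and 5918 FPKM in the OVA+PM10, PM10 and control libraries, with 4 and 7 of them listed at 0 in the exposed libraries. Skeletal muscle genes, described with the complex IV forms below, stood out in the same library. In homogenates, fewer cells of a type and less RNA per cell cannot be told apart. A difference here compares 1 library with another and has no replicate check, and no test could be made.

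Promoter windows, each of 250 bases before and 50 bases after the RefSeq start site (build GRCm38.p6), were found for 76 of the 92 genes, and 3 motifs were searched in them on both strands. The first was the NRF1 site, the half-site GCGCA followed directly by its reverse complement. The others were CCGGAAG for ETS factors such as GABP and AAGATGGC for YY1; the last 3 letters of the ETS motif are the first 3 of the YY1 motif, so 1 stretch can hold both. The NRF1 site was in 7 of 76 windows (9.21%), against 1.07% of the 27025 windows in the table and 2.07% of the 11193 windows of genes expressed here. Its 7 holders were Atp5g2, Atp5k, Cox6a1, Ndufa11, Ndufaf4, Ndufaf5 and Uqcrc1. The ETS motif was in 17 windows (22.4%), against 9.93% of all windows and 18.5% of those of expressed genes, and the YY1 motif in 11 (14.5%), against 3.19% and 4.83%. In all, 32 of 76 windows held any of the motifs. The share of other windows that held any of them was not computed, so this count has nothing to be read against.

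The windows of complex IV genes are printed because the widespread and the muscle forms of this complex lay on opposite sides of control. Cox6a1 (chr5:115348909-115349208, minus strand) and Cox8a (chr19:7217567-7217866, minus strand) are widespread forms with motifs, Cox7a2 (chr9:79759804-79760103, minus strand) is a widespread form without any of them, and Cox7a1 (chr7:30183921-30184220, plus strand) and Cox8b (chr7:140900397-140900696, minus strand) are muscle forms without any. Capitals mark a motif match, which is the NRF1 site in the first stretch of Cox6a1 and the ETS motif, read on the other strand, elsewhere.
Cox6a1: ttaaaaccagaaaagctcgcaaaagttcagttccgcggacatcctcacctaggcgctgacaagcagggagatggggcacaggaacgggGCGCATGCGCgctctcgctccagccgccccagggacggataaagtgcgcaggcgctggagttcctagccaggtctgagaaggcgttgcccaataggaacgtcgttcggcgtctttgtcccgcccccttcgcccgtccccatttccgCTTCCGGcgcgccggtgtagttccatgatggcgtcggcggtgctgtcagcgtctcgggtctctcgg
Cox8a: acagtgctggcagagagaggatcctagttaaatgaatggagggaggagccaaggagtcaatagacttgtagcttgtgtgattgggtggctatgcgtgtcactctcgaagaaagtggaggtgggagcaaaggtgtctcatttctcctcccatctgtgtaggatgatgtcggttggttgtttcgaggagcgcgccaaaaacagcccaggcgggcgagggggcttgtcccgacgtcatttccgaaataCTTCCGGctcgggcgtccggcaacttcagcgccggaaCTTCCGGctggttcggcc
Cox7a2: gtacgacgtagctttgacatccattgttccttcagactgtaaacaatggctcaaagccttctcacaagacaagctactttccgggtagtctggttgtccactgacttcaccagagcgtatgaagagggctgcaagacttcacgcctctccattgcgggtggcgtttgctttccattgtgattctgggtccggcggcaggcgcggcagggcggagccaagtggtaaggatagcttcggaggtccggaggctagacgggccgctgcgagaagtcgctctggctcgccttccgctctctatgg
Cox8b: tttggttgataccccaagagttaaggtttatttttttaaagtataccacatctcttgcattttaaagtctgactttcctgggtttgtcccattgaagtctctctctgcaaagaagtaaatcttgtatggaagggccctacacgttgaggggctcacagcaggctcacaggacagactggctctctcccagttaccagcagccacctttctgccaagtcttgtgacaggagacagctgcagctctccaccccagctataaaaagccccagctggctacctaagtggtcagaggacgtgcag
Cox7a1: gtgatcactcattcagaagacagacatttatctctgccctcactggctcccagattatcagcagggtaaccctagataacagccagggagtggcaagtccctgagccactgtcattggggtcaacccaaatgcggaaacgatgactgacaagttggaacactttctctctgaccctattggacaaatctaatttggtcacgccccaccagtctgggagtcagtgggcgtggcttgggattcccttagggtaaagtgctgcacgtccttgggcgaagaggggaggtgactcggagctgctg
A missing match says only that these letters are not in the window. Both printed muscle forms were lower in the exposed libraries than in control, and the 3 widespread forms were higher. The windows were chosen for that difference, so no link between motifs and ratios can be read from them.

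In the PM10 library against control, 61 of the 92 genes were higher by at least 2-fold and 1 was lower by as much, where 13.6% of 13693 genes were higher and 13.9% lower. The median log2 ratio of the 92 genes was 1.39, with a range of -1.52 to 2.74, beside 0.02 over all genes. In the OVA+PM10 library against control, 24 were higher and 3 lower; their median was 0.76, with a range of -3.06 to 1.47, where 9.95% of 13877 genes were higher and 8.68% lower. In the OVA+PM10 library against PM10, 1 was higher and 19 were lower, with a median of -0.63 and a range of -2.14 to 1.42, where 11.8% of 13556 genes were higher and 9.0% lower. Each pair of these comparisons shares a library, so they are not separate pieces of evidence. On the deposited scale 83 genes lay above 0 in each comparison with control and 11 in OVA+PM10 against PM10, and with the same summed FPKM these counts were 54, 63 and 42.

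The 92 genes together held 3.10%, 3.63% and 2.61% of the summed FPKM of the OVA+PM10, PM10 and control libraries. Among the 500 genes with the highest FPKM of each library, they took 49, 50 and 40 places. By complex, the median level was 172, 268 and 106 FPKM for complex I, 108, 145 and 80.3 FPKM for complex II, and 340, 667 and 211 FPKM for complex III, in the same order of libraries. For complexes IV and V it was 301, 622 and 145 FPKM and 459, 547 and 235 FPKM. Each median was highest in the PM10 library and lowest in control. As a percentage of summed FPKM, complex I took 0.916, 1.11 and 0.747, complex III 0.345, 0.413 and 0.295, complex IV 0.763, 0.871 and 0.676, and complex V 0.971, 1.12 and 0.785. Complex II had the opposite order, with 0.0525, 0.0462 and 0.0581.

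**Figure D1:**
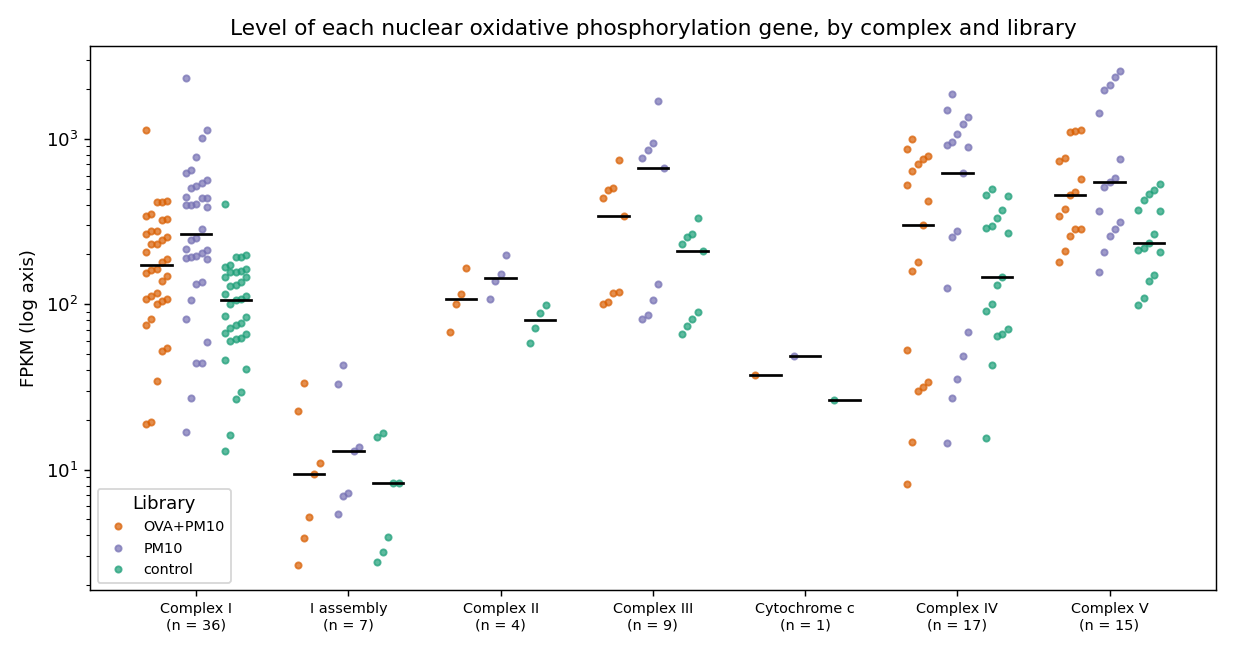
Level of each of the 89 genes of the complexes, complex I assembly and cytochrome c in FPKM (log axis), by complex and library; each point is a gene and each bar the median of its group. In every group the median of the PM10 library is the highest, with 667 FPKM in complex III against 211 FPKM in control.

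Complex I had the highest median ratio of PM10 over control on the deposited scale, though complex IV was higher without its tissue-restricted forms (1.60), as was complex II with the transcript length trend removed (0.49 against 0.47) and complex V with the coding length trend removed (0.75 against 0.74). Of its 36 subunits 28 were at least 2-fold higher in PM10 and none lower, with a median log2 ratio of 1.57. Its 7 core subunits, which carry the redox centres and bind NADH and ubiquinone, had a median of 0.83 with 3 higher, and the sign of that median turned to -0.40 when libraries were set to the same summed FPKM. Its 29 accessory subunits had a median of 1.67 with 25 higher, and that median was 0.44 with the same summed FPKM. With the transcript length trend removed, the medians of core and accessory subunits were 0.23 and 0.53.

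Among core subunits, Ndufv2, an iron-sulfur protein, had 108, 187 and 61.6 FPKM in the OVA+PM10, PM10 and control libraries. Ndufs3 had 104, 193 and 66.4 FPKM. Both were highest in PM10 and lowest in control, with log2 ratios of 1.59 and 1.52 for PM10 against control. Ndufs1, the largest iron-sulfur protein of the complex, showed the opposite order, with 18.9, 17.0 and 26.8 FPKM and log2 ratios of -0.48 (OVA+PM10) and -0.63 (PM10) against control. Ndufv1, which binds NADH and its flavin, had 81.2, 81.4 and 60.2 FPKM, nearly the same level in both exposed libraries. Ndufs8, another iron-sulfur protein, did likewise, with 188, 192 and 107 FPKM.

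The accessory subunits with the highest PM10 ratios were Ndufa2, with 418, 1128 and 168 FPKM in the OVA+PM10, PM10 and control libraries, and Ndufa3, with 1124, 2346 and 406 FPKM. Their log2 ratios were 2.74 and 2.53 for PM10 against control and 1.31 and 1.47 for OVA+PM10 against control. Ndufa3 was the most abundant complex I transcript in every library. Ndufa5, a subunit of the matrix arm (mouse chr6:24518666-24528013, GRCm38, minus strand), had 155, 541 and 112 FPKM, so that it stood high in the PM10 library alone, with a log2 ratio of -1.80 for OVA+PM10 against PM10. Ndufab1, the mitochondrial acyl carrier protein, which also serves fatty acid synthesis, differed least of those higher in PM10, with 54.5, 59.1 and 40.4 FPKM.

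Ndufa10, an accessory subunit of the nucleoside kinase family (chr1:92439010-92473860, minus strand), departed from the rest. It had 74.7, 27.2 and 46.2 FPKM in the OVA+PM10, PM10 and control libraries. It was the sole member at least 2-fold higher in OVA+PM10 than in PM10, with a log2 ratio of 1.42, and it lay below control in PM10 at -0.74. With the trend over transcript length removed, these ratios were 1.58 and -1.09.

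The 7 complex I assembly factors, which build the complex without being part of it, were low in all libraries, with medians of 9.39, 13.0 and 8.32 FPKM in OVA+PM10, PM10 and control. Ndufaf3 had 33.6, 43.2 and 16.6 FPKM and Ndufaf2 22.7, 33.0 and 15.7 FPKM, and these were the 2 factors at least 2-fold higher in PM10 than in control. The median log2 ratio of the factors was 0.77 for PM10 and 0.36 for OVA+PM10 against control, and both turned negative, to -0.22 and -0.23, with the same summed FPKM.

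In complex II, succinate dehydrogenase, which also belongs to the tricarboxylic acid cycle, the median ratios were the smallest of the 5 complexes on the deposited scale. The flavoprotein Sdha had 68.2, 108 and 71.6 FPKM in the OVA+PM10, PM10 and control libraries, and the iron-sulfur protein Sdhb had 165, 200 and 98.3 FPKM. The membrane anchors Sdhc and Sdhd had 116, 152 and 89.1 FPKM and 100.3, 138 and 58.3 FPKM. All 4 were highest in PM10, and 3 of the 4 were lowest in control. Sdhb and Sdhd were at least 2-fold higher in PM10 than in control, with log2 ratios of 1.01 and 1.23. The median of complex II was 0.89 (PM10) and 0.56 (OVA+PM10) against control and -0.42 between OVA+PM10 and PM10, and each changed sign with the same summed FPKM, to -0.34, -0.09 and 0.17.

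Complex III split into its catalytic part and its small subunits. Its 4 catalytic and core proteins had a median log2 ratio of 0.23 for PM10 against control, which turned to -0.9999 with the same summed FPKM. Cytochrome c1 (Cyc1) had 118, 86.5 and 74.1 FPKM in OVA+PM10, PM10 and control, and the Rieske iron-sulfur protein (Uqcrfs1) 104, 133 and 65.8 FPKM. The core proteins Uqcrc1 and Uqcrc2, relatives of the mitochondrial processing peptidase, had 118, 81.8 and 81.9 FPKM and 101, 106 and 90.2 FPKM. Cyc1 and Uqcrc1 were thus highest in OVA+PM10, not in PM10. The 5 small subunits were all at least 2-fold higher in PM10 than in control, with a median of 1.81. That median was 0.57 with the same summed FPKM. With the transcript length trend removed, the median was -0.22 for the catalytic and core proteins and 0.32 for the small subunits. The hinge protein Uqcrh, which docks cytochrome c1, had 741, 1695 and 333 FPKM, and Uqcrq, a ubiquinone-binding subunit, 438, 766 and 211 FPKM. Their log2 ratios against control were 1.15 and 1.05 in OVA+PM10, and 2.34 and 1.86 in PM10. Cytochrome c itself (Cycs) had 37.6, 48.8 and 26.4 FPKM, with log2 ratios of 0.49 (OVA+PM10) and 0.86 (PM10) against control.

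Complex IV, cytochrome c oxidase, held subunits far above control on the deposited scale as well as the lowest ratios of the whole set. Its 11 widespread subunits were all at least 2-fold higher in PM10 than in control, at a median log2 ratio of 1.60, and 5 of them were so in OVA+PM10, with a median of 0.97. With the same summed FPKM these medians were 0.36 and 0.33. With the transcript length trend removed they were 0.34 and 0.17, and 0 of the 11 were at least 2-fold higher in either library. Cox7c had 529, 1230 and 271 FPKM in OVA+PM10, PM10 and control. Cox6c had 759, 1864 and 460 FPKM, and stood highest among complex IV transcripts in the PM10 library. Cox5b, which binds zinc, had 643, 887 and 290 FPKM. Ndufa4, named as a complex I protein and since assigned to complex IV, had 420, 918 and 370 FPKM, so that its log2 ratio was 1.31 for PM10 and 0.18 for OVA+PM10 against control.

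The 6 tissue-restricted forms had medians of -0.68 (PM10) and -1.08 (OVA+PM10) against control, below those of the widespread subunits. Between OVA+PM10 and PM10 their median was -0.62 and that of the widespread subunits -0.64. Cox8b, a heart, skeletal muscle and brown fat form (chr7:140898945-140900446, minus strand), had 14.8, 68.2 and 130 FPKM in OVA+PM10, PM10 and control, while its partner Cox8a had 788, 1063 and 297 FPKM. The log2 ratios of Cox8b were -3.06 (OVA+PM10) and -0.92 (PM10) against control and -2.14 between OVA+PM10 and PM10. Its share of the pair's summed FPKM was 1.84% in OVA+PM10, 6.03% in PM10 and 30.5% in control.

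The other heart and skeletal muscle forms had the same order against control. Cox7a1 (chr7:30184144-30186078, plus strand) had 33.9, 48.7 and 66.0 FPKM, or 10.1%, 7.26% and 31.2% of its pair with Cox7a2, in OVA+PM10, PM10 and control. Cox6a2 (chr7:128205435-128206387, minus strand) had 29.9, 35.2 and 71.3 FPKM, or 4.05%, 3.53% and 17.7% of its pair with Cox6a1. All 3 muscle forms were highest in control, both as a level and as a share.

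Ndufa4l2, a paralog of Ndufa4 known as a target of hypoxia-inducible factor (chr10:127514967-127517154, plus strand), had 8.24, 14.4 and 43.2 FPKM in OVA+PM10, PM10 and control, or 1.92%, 1.54% and 10.5% of its pair. Its log2 ratio of -1.52 made it the sole member at least 2-fold lower in PM10 than in control, and Cox6a2 lay next to that limit at -0.998. Cox4i2, the lung form of subunit 4, had 52.9, 125 and 64.5 FPKM, or 5.04%, 7.71% and 11.5% of its pair with Cox4i1. Its level was highest in PM10 while its share was highest in control. Cox6b2, a testis form, had 31.4, 27.1 and 15.6 FPKM, or 3.47%, 1.95% and 3.35% of its pair with Cox6b1. It was the tissue form whose level was lowest in control, and the 6 testis and sperm markers were at or near 0 in every library, with sums of 0.857, 0 and 0.039 FPKM.

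Marker genes of muscle and fat differed between the same libraries. The 18 skeletal muscle markers summed to 61.3, 62.3 and 5369 FPKM in OVA+PM10, PM10 and control, and 15 and 16 of them were at least 2-fold lower in OVA+PM10 and PM10 than in control. Myh1, Myh2, Myh4 and Tnnc2 were listed at 0 in OVA+PM10, and Acta1, Myh4, Tnnc2 and Tnni1 in PM10, whereas in control Acta1, skeletal muscle actin, had 966 FPKM and Tnnc2, fast troponin C, 989 FPKM. The 15 cardiac muscle markers summed to 411, 213 and 1515 FPKM, and Myl7, the atrial light chain also made in the muscle sleeve of lung veins, had 117, 42.1 and 127 FPKM. Mb, with 6.48, 1.88 and 411 FPKM, and Myl3, with 3.79, 0.888 and 301 FPKM, made up much of the control sum. Tnnt2 had 60.6, 40.2 and 65.8 FPKM, and Actc1 was highest in OVA+PM10. Of the 14 cardiac markers that reached 1 FPKM, 7 in OVA+PM10 and 11 in PM10 were at least 2-fold lower than in control. The sum therefore does not stand for every marker. The 11 adipose markers summed to 127, 11.1 and 338 FPKM, with Lep listed at 0 in OVA+PM10 and Plin1, Ucp1 and Lep in PM10. The 14 smooth muscle and pericyte markers summed to 956, 535 and 756 FPKM, with none at 0. Tagln was the largest in the exposed libraries, with 324 FPKM in OVA+PM10 and 177 FPKM in PM10. Smaller members of this list had different orders. Higd1b, with 33.7, 134.5 and 26.6 FPKM, and Pdgfrb were highest in PM10. Notch3, with 4.86, 1.34 and 12.7 FPKM, and Rgs5 were highest in control and lowest in PM10. The sum therefore gives no level for pericytes. The part of these tissues in the levels of Cox8b, Cox7a1 and Cox6a2, and the part of pericytes in those of Ndufa4l2, was not tested. Of 13 genes on a hypoxia list, which holds the factors Hif1a, Epas1 and Hif3a beside targets, 11 reached 1 FPKM. In OVA+PM10, 4 (Vegfa, Egln3, Bnip3 and Epas1) were at least 2-fold lower than in control and none higher. Over all genes 8.68% were lower and 9.95% higher there. In PM10, 2 were lower and 1 higher than in control, where 13.9% of all genes were lower and 13.6% higher. Vegfa was also among the 8 alveolar type 1 markers, 6 of which were lower in OVA+PM10.

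**Figure D2:**
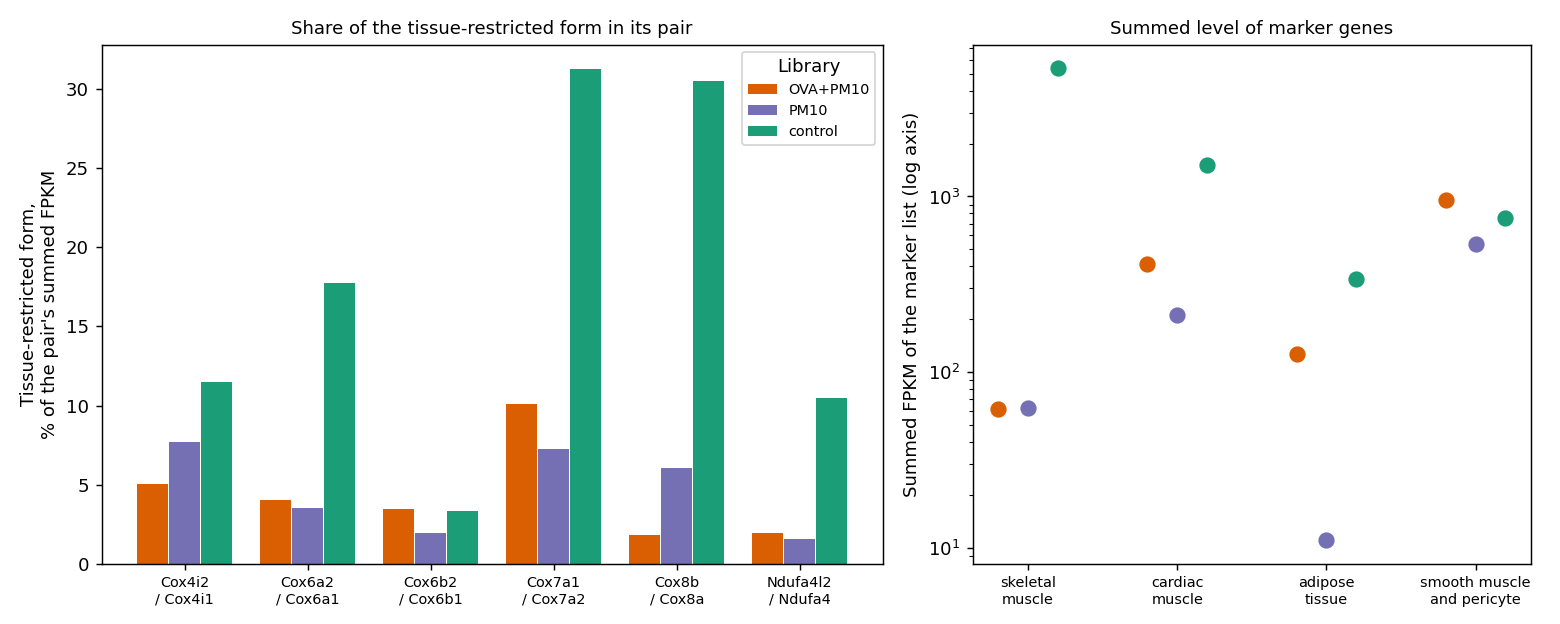
Left, share of each tissue-restricted form in the summed FPKM of its pair, in percent, for the OVA+PM10, PM10 and control libraries; right, summed FPKM of the marker lists of skeletal muscle, cardiac muscle, adipose tissue and smooth muscle with pericytes (log axis). Cox8b takes 1.84%, 6.03% and 30.5% of its pair and skeletal muscle markers sum to 61.3, 62.3 and 5369 FPKM, so both are far higher in control.

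The ATP synthase has a catalytic F1 head in the matrix, a ring of subunit c in the membrane, and a stalk with small membrane subunits. The 5 F1 subunits had a median log2 ratio of 0.46 for PM10 against control, which turned to -0.78 with the same summed FPKM. The catalytic subunit beta (Atp5b) had 459, 365 and 372 FPKM in OVA+PM10, PM10 and control, and its partner alpha (Atp5a1) 287, 284 and 235 FPKM. The small epsilon subunit (Atp5e) had 1121, 2369 and 464 FPKM, with log2 ratios of 1.27 (OVA+PM10) and 2.35 (PM10) against control. The delta subunit (Atp5d) had 286, 315 and 139 FPKM. On the deposited scale, alpha and beta were within 2-fold in all comparisons and delta and epsilon were not, but with the same summed FPKM beta was at -1.27 for PM10 against control, and with the transcript length trend removed epsilon was at 0.84.

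All 7 stalk and membrane subunits were at least 2-fold higher in PM10 than in control, with a median of 1.74, and 4 of the 7 were so in OVA+PM10, with a median of 1.01. With the same summed FPKM these medians were 0.50 and 0.36. With the transcript length trend removed, 2 of the 7 were higher in PM10 and 0 in OVA+PM10, at medians of 0.74 and 0.16. Subunit e (Atp5k), the most abundant member in every library, had 1135, 2585 and 535 FPKM in OVA+PM10, PM10 and control, and subunit g (Atp5l) 735, 1967 and 366 FPKM. Both help the synthase to form dimers. Their log2 ratios for OVA+PM10 against PM10 were -1.19 and -1.42. Subunit f (Atp5j2) had 1096, 2129 and 489 FPKM.

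Subunit c comes from 3 genes that encode the same mature protein. Atp5g1 had 211, 158 and 98.9 FPKM in OVA+PM10, PM10 and control, Atp5g2 575, 761 and 264 FPKM, and Atp5g3 341, 509 and 208 FPKM. Atp5g2 supplied the most in every library, with 51.0%, 53.3% and 46.3% of their sum. The share of Atp5g1, the copy known to vary with demand, was 18.7%, 11.05% and 17.3%, so it was lowest in PM10, and Atp5g1 was 1 of the 11 members higher in OVA+PM10 than in PM10, with a log2 ratio of 0.42.

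**Figure D3:**
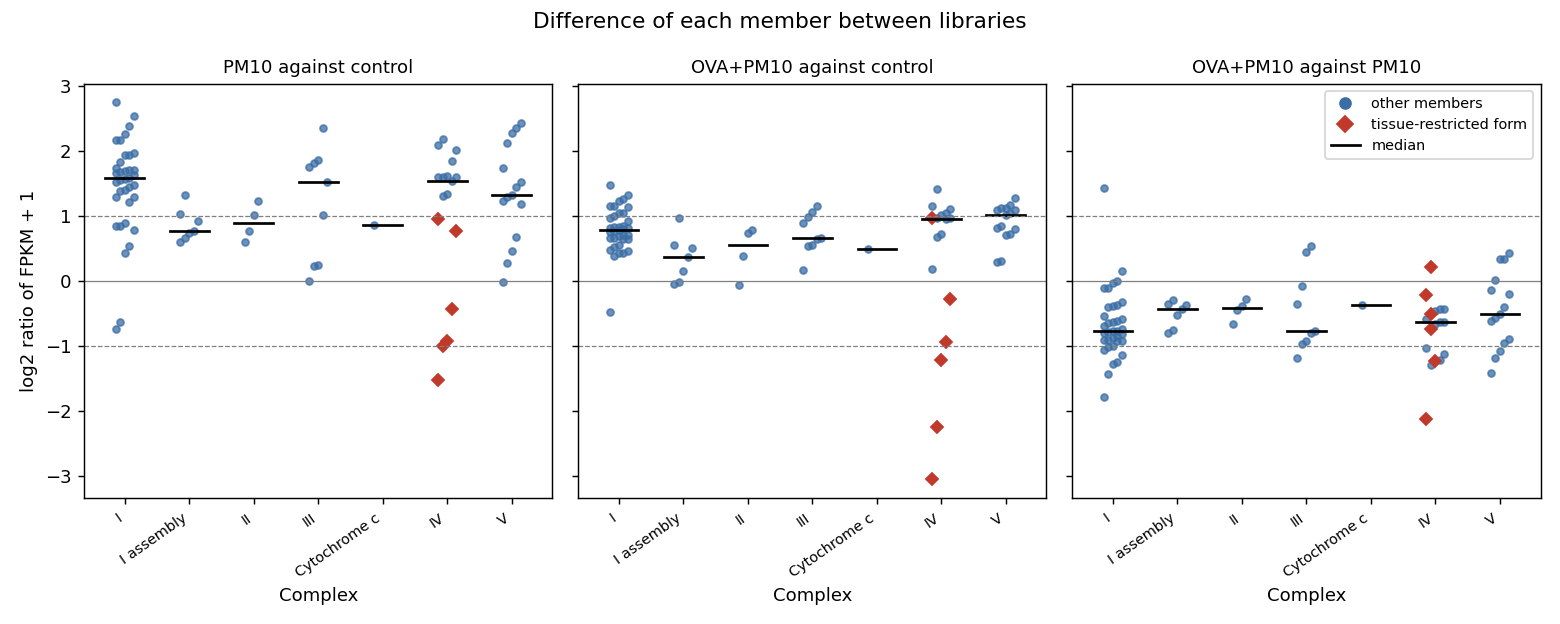
Log2 ratio of FPKM + 1 of each of the same 89 genes by complex, in the 3 comparisons (PM10 with control, OVA+PM10 with control, OVA+PM10 with PM10); red diamonds are the 6 tissue-restricted forms, bars are medians and dashed lines mark 2-fold. The complex medians for PM10 against control are 1.57, 0.89, 1.52, 1.54 and 1.32 for complexes I to V on the deposited scale, and that of complex II turns to -0.34 with the same summed FPKM.

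Set side by side, the complex medians for PM10 against control were 1.57 for complex I, 0.89 for II, 1.52 for III, 1.54 for IV and 1.32 for V, and the counts at least 2-fold higher were 28 of 36, 2 of 4, 6 of 9, 11 of 17 and 11 of 15. For OVA+PM10 against control the medians were 0.78, 0.56, 0.66, 0.96 and 1.01, with 9, 0, 2, 5 and 8 higher. Between OVA+PM10 and PM10 they were -0.78, -0.42, -0.77, -0.64 and -0.52, with 8, 0, 1, 6 and 3 lower, and with the same summed FPKM those of complexes II and V turned to 0.17 and 0.07. Within complex I, ratios of single subunits for PM10 against control ran from -0.74 to 2.74, and within complex II from 0.59 to 1.23.

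The ratios followed transcript length, and most of these genes are short. Their median transcript length was 921 bases (360 to 4715), against 2848 bases over all genes. Across the 92 genes, Spearman's rho of the log2 ratio with transcript length was -0.56 (PM10 and control), -0.43 (OVA+PM10 and control) and 0.58 (OVA+PM10 and PM10), and across all genes it was -0.52, -0.38 and 0.28. These values are over genes of the same libraries and describe the libraries. Across the 86 genes without the tissue-restricted forms, rho was -0.73, -0.58 and 0.62.

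Coding length sorted the members the same way. Without the tissue-restricted forms, all 18 with a coding length under 300 bases were at least 2-fold higher in PM10 than in control, with a median log2 ratio of 1.99, where all genes of that length had 1.14. From 300 to under 450 bases, 22 of 25 were higher with a median of 1.61, beside 0.99 over all genes, and from 450 to under 900 bases, 20 of 27 with a median of 1.23, beside 0.52. At 900 bases or more, 1 of 16 was higher and the median was 0.51, beside -0.18. Between OVA+PM10 and control, 10 of 18, 10 of 25, 4 of 27 and 0 of 16 were higher in these classes, with medians of 1.05, 0.84, 0.77 and 0.37, beside 0.52, 0.45, 0.20 and -0.09. The members' median lay above that of all genes in each class. The share of all genes of a class that was at least 2-fold higher was not computed, so these counts have no background. Under 300 bases the median of all genes for PM10 against control, 1.14, was itself above 2-fold.

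**Figure D4:**
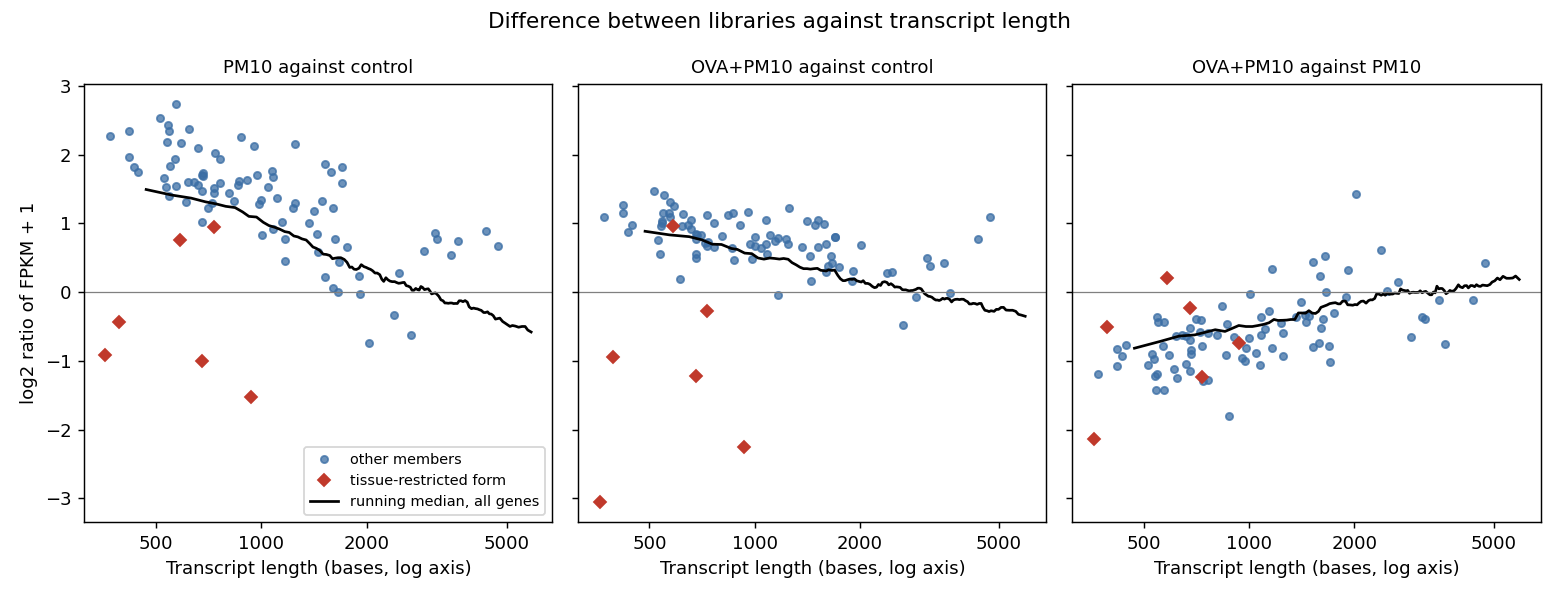
Log2 ratio of FPKM + 1 of each member against transcript length in bases (log axis), with the running median of all genes as a black line and the tissue-restricted forms as red diamonds. The short members lie highest for PM10 against control, where rho across the 92 genes is -0.56, and lowest for OVA+PM10 against PM10, where it is 0.58.

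After the running median over transcript length was taken off, 12 members lay at least 2-fold above control in PM10 and 5 lay below it by as much, where 6.49% of genes were higher and 11.1% lower, and the members' median was 0.33. The 12 were Ndufa13, Ndufs4, Ndufa2, Uqcrq, Ndufv3, Ndufb2, Ndufv2, Ndufa5, Ndufa3, Atp5g1, Atp5j2 and Atp5l, of which 8 belong to complex I. The 5 lower were Ndufa4l2, Cox8b, Cox6a2, Cox7a1 and Ndufa10. For Atp5g1 and Ndufb2 the annotated transcripts of 4715 and 4371 bases are long beside coding lengths of 408 and 315 bases, and their places depend on that annotation. So does that of Uqcrq, with 1521 and 246 bases, which lay at 1.30 here and at 0.74 with the coding length trend removed. Between OVA+PM10 and control, 1 was higher (Atp5g1) and 4 lower (Cox8b, Ndufa4l2, Cox6a2 and Cox7a1), where 7.28% were higher and 8.32% lower, and the median was 0.16. For OVA+PM10 against PM10, 1 was higher (Ndufa10) and 2 lower (Cox8b and Ndufa5), where 11.9% were higher and 6.41% lower, and the median was -0.15. Complex medians for PM10 against control were then 0.47, 0.49, 0.25, 0.22 and 0.41 for complexes I to V, with complex II no longer the lowest. The 3 muscle forms and Ndufa4l2 stayed below control in both exposed libraries, at -1.84 or lower.

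By their medians on the deposited scale, other sets of housekeeping genes lay on the same side. Over all genes, 9.95% in OVA+PM10 and 13.6% in PM10 were at least 2-fold higher than in control, and 8.68% and 13.9% lower. Of 83 cytosolic ribosomal protein genes, 70 in OVA+PM10 and 81 in PM10 were at least 2-fold higher than in control, with medians of 1.24 and 2.14 on the deposited scale and of 0.60 and 0.90 with the same summed FPKM. The 1 lower in each was Rpl3l, a paralog known from heart and skeletal muscle. Of 76 mitochondrial ribosomal protein genes, 9 and 52 were higher and none lower, with medians of 0.60 and 1.20 on the deposited scale and of -0.01 and 0.01 with the same summed FPKM. Of 37 proteasome subunit genes, 6 and 23 were higher and none lower, with medians of 0.63 and 1.08, which turned to -0.01 and -0.15 with the same summed FPKM. With the transcript length trend removed, 11 and 44 cytosolic ribosomal, 2 and 17 mitochondrial ribosomal and 0 and 5 proteasome genes were higher. Over all genes 7.28% and 6.49% were higher on that scale.

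Genes that work beside the respiratory chain varied by kind. Their counts are to be read against all genes, of which 9.95% (OVA+PM10) and 13.6% (PM10) were at least 2-fold higher than in control. The shares at least 2-fold lower were 8.68% and 13.9%. Of 42 assembly factors outside the name rule, 41 were in the files, and 2 in OVA+PM10 and 15 in PM10 were at least 2-fold higher than in control, while 1 was lower in PM10. Cox17, the copper carrier for complex IV, had 281, 839 and 163 FPKM in OVA+PM10, PM10 and control, and Uqcc2, which helps cytochrome b to be made, 331, 727 and 143 FPKM. Their order matched that of the small subunits. Of 10 subunits or associated proteins outside the name rule, 5 were in the files, and 3 were higher in PM10 than in control. Among them Usmg5, a small ATP synthase subunit, had 618, 1299 and 350 FPKM, and Atpif1, the inhibitor of the synthase, 87.7, 149 and 36.9 FPKM. Of 17 genes of the outer membrane and protein import, 1 in OVA+PM10 and 10 in PM10 were higher than in control and none lower. With the transcript length trend removed, these counts were 0 and 5, those of the assembly factors 0 and 5, and those of the other subunits 0 and 1. Over all genes 7.28% and 6.49% were higher on that scale.

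The 14 genes of the tricarboxylic acid cycle were all within 2-fold in every comparison, with medians of 0.12 (PM10) and 0.21 (OVA+PM10) against control and 0.25 between OVA+PM10 and PM10, the first 2 of which turned to -1.11 and -0.42 with the same summed FPKM. Citrate synthase (Cs), its entry enzyme, had 53.9, 41.2 and 50.1 FPKM in OVA+PM10, PM10 and control, lowest in PM10. Of 15 genes of fatty acid oxidation, 1 was higher and 1 lower in PM10 than in control, and 1 was lower in OVA+PM10. The lower one in both was Cpt1b, the muscle form of the carnitine transferase, with 0.262, 0.303 and 3.38 FPKM. Of 14 glycolytic genes none was higher, and 1 in OVA+PM10 and 3 in PM10 were lower than in control, among them Pfkm, the muscle phosphofructokinase, with 7.67, 6.04 and 37.4 FPKM. For both lists, the shares over all genes were 9.95% (OVA+PM10) and 13.6% (PM10) higher, and 8.68% and 13.9% lower.

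Regulators known to drive these genes were low and varied in their order. Of 16 regulators, 14 reached 1 FPKM. None was at least 2-fold higher than control in either exposed library, where 9.95% (OVA+PM10) and 13.6% (PM10) of all genes were. In OVA+PM10 1 and in PM10 3 were lower, where over all genes 8.68% and 13.9% were lower. With the transcript length trend removed, 1 was higher and 1 lower in PM10. Yy1 had 22.5, 36.7 and 26.0 FPKM in OVA+PM10, PM10 and control, highest in PM10. Nrf1 had 5.77, 7.41 and 7.28 FPKM, and Tfam, which serves mitochondrial DNA, 7.92, 9.15 and 7.62 FPKM. Gabpa, the DNA-binding part of GABP, had 7.32, 5.23 and 11.6 FPKM and its partner Gabpb2 5.72, 2.12 and 8.81 FPKM. Both were lowest in PM10. The coactivator Ppargc1a had 1.35, 0.293 and 1.06 FPKM, and Perm1, a muscle regulator of the same genes, 0.145, 0.187 and 2.45 FPKM.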

How the data were processed

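The authors deposited 1 table of values for each of the 3 lung libraries, with a gene symbol and a value for 23183 genes, and a header that names the library but no unit. The deposited values were treated as FPKM, a unit inferred from the values, since neither the labels nor the file headers name it. Per the labels' protocols, RNA was extracted with Trizol and 1.3 µg went into each strand-preserving library; the submitters' processing notes name TopHat and the build mm10. The read counter, its annotation and strand setting and the fate of multiply matching reads were not given in the sources used here. Several of these genes have near-identical processed pseudogenes or overlapping neighbours, so their values are uncertain to that extent.

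Samples were grouped by title, with 1 library a group, so no p-value, error or interval could be given. Libraries were compared by the log2 ratio of FPKM + 1 over all genes whose higher value reached 1 FPKM, and 2-fold marked a gene as higher or lower. Such ratios understate differences of low genes. Depth was estimated from the smallest steps in FPKM times transcript length and is approximate. Transcript length was that of the principal transcript in GENCODE M21 (GRCm38, the assembly mm10 names), found for 22821 genes (98.4%), and its trend was a running median over 501 genes. The ratio code was tested on simulated data. Python 3.11.15, pandas 2.3.3, numpy 2.4.6 and scipy 1.17.1 were used.

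The genes named were, in each class of members and each comparison, the 2 highest and the 2 lowest by ratio among those whose higher value reached 5 FPKM, all complex II genes, cytochrome c and every isoform pair; others named were chosen after their values were seen. The members and the 20 gene lists were chosen with earlier results of these data known. Protein sequences were not used here. A result on a withheld item is not reported here.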

Additional observations from a re-analysis of the deposited data

How the results depend on the processing

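Results were recomputed under 12 alternatives. A pseudocount of 5 FPKM, no filter and a filter of 5 FPKM moved no count, median or gap by more than 1.5 times, a limit used because no replicate spread exists. Leaving out assembly factors and outside proteins, run for the counts and medians of all members, did not either. For PM10 against control, the members at least 2-fold higher were 14 at 4-fold, 8 with the same summed FPKM, 12 with the transcript length trend removed and 17 with the coding length trend removed, a setting chosen after seeing the data. The lower ones were 2 with a pseudocount of 0.25 FPKM or median ratio scaling, 5 at 1.5-fold, 0 at 4-fold, 10 with the same sum, 5 and 4 with the length trends removed and 0 without tissue-restricted forms. The median was 0.17, 0.33 and 0.62 with the same sum, the transcript and the coding length trend removed, and the gap between complex medians 0.27 and 0.26 with the length trends removed. For OVA+PM10 against control, 62 were higher at 1.5-fold, 0 at 4-fold and with the same sum, and 1 and 0 with the length trends removed. The lower ones were 5 with the same sum and 0 without tissue-restricted forms, the median was 0.12, 0.16 and 0.45, and the gap 0.18 and 0.29 with the length trends removed. For OVA+PM10 against PM10, 2 were higher and 51 lower at 1.5-fold, 0 and 1 at 4-fold, 5 and 2 with the same sum and 2 and 2 with the coding length trend removed; 2 were lower with the transcript length trend removed. The median was -0.0402, -0.15 and -0.14. For PM10 against control, 26.3% of all genes were higher and 25.5% lower at 1.5-fold, and 2.21% and 3.83% were so at 4-fold. For the other comparisons such shares are not given here, so their counts at these thresholds stand without a background. With the same sum the shares of all genes higher and lower were 1.76% and 51.2% (PM10) and 4.30% and 24.1% (OVA+PM10) against control, and 24.0% and 2.40% between the exposed libraries, so the members' counts there are to be read against these.

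Complex II medians turned with the same sum, to -0.34 (PM10) and -0.0856 (OVA+PM10) against control and to 0.17 between the exposed libraries. In that last comparison complex V turned to 0.0728, and with the transcript length trend removed complexes III, IV and V turned to 0.0111, 0.0011 and 0.0340, and V to 0.0204 with the coding length trend. The cause was not tested. Of the other complex medians, 36 moved and 91 did not. No paired analysis was possible because each group has 1 library. The member with the fewest reads had about 47.3.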
